A study of Drosophila melanogaster with 9 samples.

Results

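The genes described here make, load or break down 3 fast transmitters of the fly brain. They are ChAT, VAChT and Ace for acetylcholine, VGlut for glutamate, and Gad1 and VGAT for GABA (gamma-aminobutyric acid). The 6 genes were chosen by name, out of 17562 gene IDs in each deposited expression table, and all 6 were detected in every library. In PGRP-LB mutant brains after exposure to bacteria, VAChT RNA fell by 37.4% relative to unexposed wild-type brains, while ChAT, which lies in the same gene locus, was not called. VGlut was higher by 18.3%, a call that was lost when any 1 library was left out, and Ace, Gad1 and VGAT overlapped with the controls.

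A fast transmitter is made in the nerve ending by an enzyme, packed into synaptic vesicles by a transporter of its own, released, and then broken down or taken up again. In insects acetylcholine is the main excitatory transmitter of the central brain, GABA is the main inhibitory one, and glutamate acts at the neuromuscular junction and, through glutamate-gated chloride channels, as an inhibitory transmitter in parts of the brain. ChAT encodes choline acetyltransferase, which makes acetylcholine. VAChT encodes the vesicular acetylcholine transporter and Ace encodes acetylcholinesterase, which breaks acetylcholine down in the synaptic cleft. VGlut encodes the vesicular glutamate transporter. Gad1 encodes glutamate decarboxylase, which makes GABA from glutamate, and VGAT encodes the vesicular GABA transporter. RNA of these genes, other than Ace, is commonly used to mark the neurons that use each transmitter, whereas cells that receive acetylcholine also express Ace.

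RNA came from adult female Drosophila melanogaster, 4 to 6 days of age, whose brains were dissected and pooled, 20 to each of 9 libraries. The 3 groups of 3 libraries were wild-type flies in the control condition (WT control), wild-type flies fed the Gram-negative bacterium Ecc15 (WT Ecc15) and PGRP-LB mutant flies fed the same bacterium (PGRP-LB Ecc15). Exposure lasted 16 h per the labels, whereas the design text of the series gives a day-long diet of bacteria or of sucrose for the control. PGRP-LB encodes an enzyme that degrades peptidoglycan, a polymer of the bacterial cell wall, and the series concerns the effect of peptidoglycan on transcription in the brain. Column headers spell the mutant PGRP-LBD, where the final letter is not explained, and the sample labels write PGRP-LB mutant, the form used here. The genetic background of either strain is not stated. No unexposed mutant library was analysed here, so mutation, strain and exposure cannot be told apart in the comparison of PGRP-LB Ecc15 with WT control. Nothing in the labels says whether the pools of a group came from separate rearings, so the p-values measure the spread between these pools only. In such whole-brain RNA, fewer cells of a type and less RNA per cell cannot be told apart.

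All values are the authors' normalized counts, and each exposed group stands with the same 3 WT control libraries in a table of its own. The libraries of a group are named S1 to S3 after the deposited columns. An estimated 19.4 to 30.7 M reads (M, mega) were counted per library, fewest in WT Ecc15 S2, and between 4378 and 55680 of them fell on each of the 6 genes. Counting error of a single value was therefore 0.424% to 1.51%. The libraries of each group held RNA of neurons, with elav, an RNA-binding protein of all neurons, at 5457 to 7341 normalized counts over both tables. PGRP-LB itself stood at 120 to 164 in WT control and at 687 to 1359 in the mutant libraries. On the scale used with WT Ecc15 it stood at 122 to 167 in WT control and at 224 to 335 in WT Ecc15. The labels do not say which bases the mutation changes, so these levels do not check the genotype. The summed level of 13 photoreceptor genes on a common scale ran from 63715 to 372017 in WT control, 102121 to 232760 in WT Ecc15 and 35392 to 160963 in PGRP-LB Ecc15, with none of the 13 called. Their median log2 change was -0.41 in WT Ecc15, with 1 gene above 0, and -1.21 in PGRP-LB Ecc15, with 0 above 0. The sum was lowest in library S3 of WT control, S2 of WT Ecc15 and S3 of PGRP-LB Ecc15. For 11 muscle genes the same sum was 3592 to 16056, 3964 to 9883 and 20944 to 38029. In PGRP-LB Ecc15, 9 of the 11 had log2 changes above 0, with a median of 1.32 beside 0.01 over all genes. Act88F and TpnC4 went the other way. By calls, 1 of 11, sls, was higher in PGRP-LB Ecc15, near the 9.65% of all genes called higher there. The sls call was lost in 6 of 15 alternative settings, 4 of them with a library left out. For 11 glial genes the sum was 89839 to 95174, 85682 to 91300 and 69690 to 78639. In PGRP-LB Ecc15, 2 of 11 were called higher and 5 of 11 lower, beside 9.65% higher and 6.26% lower over all genes. For 15 general neuron genes, which exclude the 6 genes described here, the sum was 457205 to 549329, 516148 to 554128 and 503646 to 534902. None of the 15 was called in either comparison. None of the genes of these 4 lists was at 0 in a whole group.

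ChAT and VAChT form what is known as the cholinergic gene locus. In the BDGP6 annotation both start at the same base of chromosome 3R on the plus strand. ChAT (FBgn0000303) spans 3R 18705501 to 18732344 and VAChT (FBgn0270928) spans 18705501 to 18718916. The 606 bases of the first exon, 18705501 to 18706106, are common to both genes. VAChT has 1 annotated transcript, whose only other exon of 6492 bases, 18712425 to 18718916, lies inside the first intron of ChAT. Exon 2 of ChAT starts at 18723988, beyond the end of VAChT. The share of exon bases common to both is 606 of 7098 in VAChT and 606 of 4011 in ChAT, and reads on those bases cannot be assigned to either gene by position alone. The small genes CG34283, CG7714 and CG7715 on the opposite strand lie in ChAT introns and share no exon base with it.

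**Figure D1:**
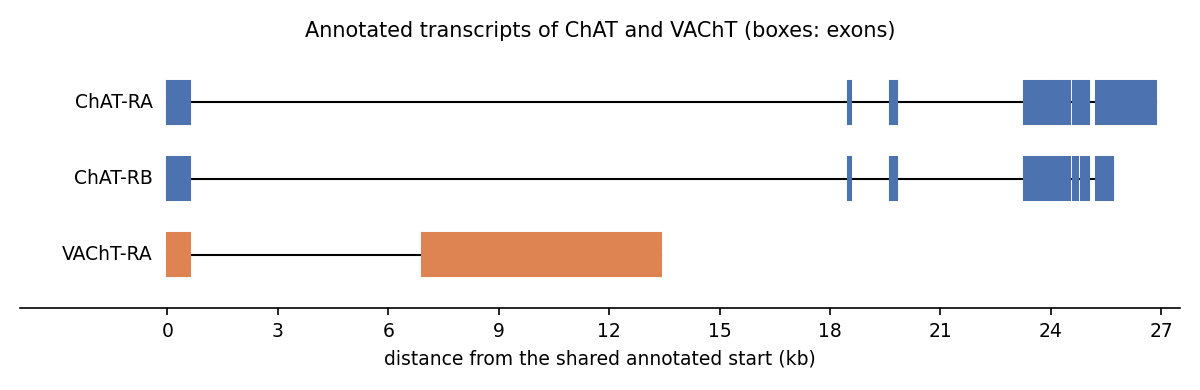
Annotated transcripts of ChAT (2, blue) and VAChT (1, orange) drawn to scale, with exons as boxes, introns as lines and the distance from the shared start in kb on the x axis. The first exon of 606 bases is common to all, and the large second exon of VAChT lies in the first ChAT intron.

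The other 4 genes lie apart from this locus and from each other. Ace (FBgn0000024) spans 3R 13222951 to 13259517 on the minus strand. VGlut (FBgn0031424) spans 2L 2400295 to 2410662 on the plus strand and shares 39 exon bases with CG18641 on the opposite strand, a gene that had group means of 3.33 to 12.3 normalized counts. Gad1 (FBgn0004516) spans 3L 4074077 to 4088744 and VGAT (FBgn0033911) spans 2R 14198478 to 14201249, both on the minus strand. The strand setting of the authors' counting is not given in the sources used here.

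Levels of different genes were compared per kb of annotated exon. Gad1 stood far above the rest, with 12612 ± 350 normalized counts per kb (SD, n = 3) in WT control. Ace followed with 2596 ± 114, VGAT with 2170 ± 298, VGlut with 1949 ± 68.6, ChAT with 1795 ± 50.7 and VAChT with 1686 ± 44.7 per kb (SD, n = 3 each). VGAT ranged from 1856 to 2450 per kb and VGlut from 1893 to 2025, so these neighbours in the order did not differ beyond their spread, while every Ace library was above every VGAT library and Gad1 was above all others. ChAT ranged from 1737 to 1832 per kb and VAChT from 1644 to 1733, without overlap with each other or with VGlut. With the same counts divided by only the exon bases that no other gene shares, ChAT came to 2115 ± 59.7 and VAChT to 1844 ± 48.8 per kb (SD, n = 3). This puts ChAT above VGlut. Reads on shared bases were not taken out of the counts, so the order of ChAT and VGlut depends on the length used. In PGRP-LB Ecc15 VAChT was at 1038 ± 29.7 per kb of all exon bases (SD, n = 3) and at 1135 ± 32.4 per kb of unshared ones, the lowest mean of the 6 genes on both scales. The next lowest was ChAT at 1946 ± 103 on the former scale and VGAT at 2143 ± 165 on the latter. Per-kb levels depend on the annotated length, and the isoforms that these brains use were not measured.

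**Figure D2:**
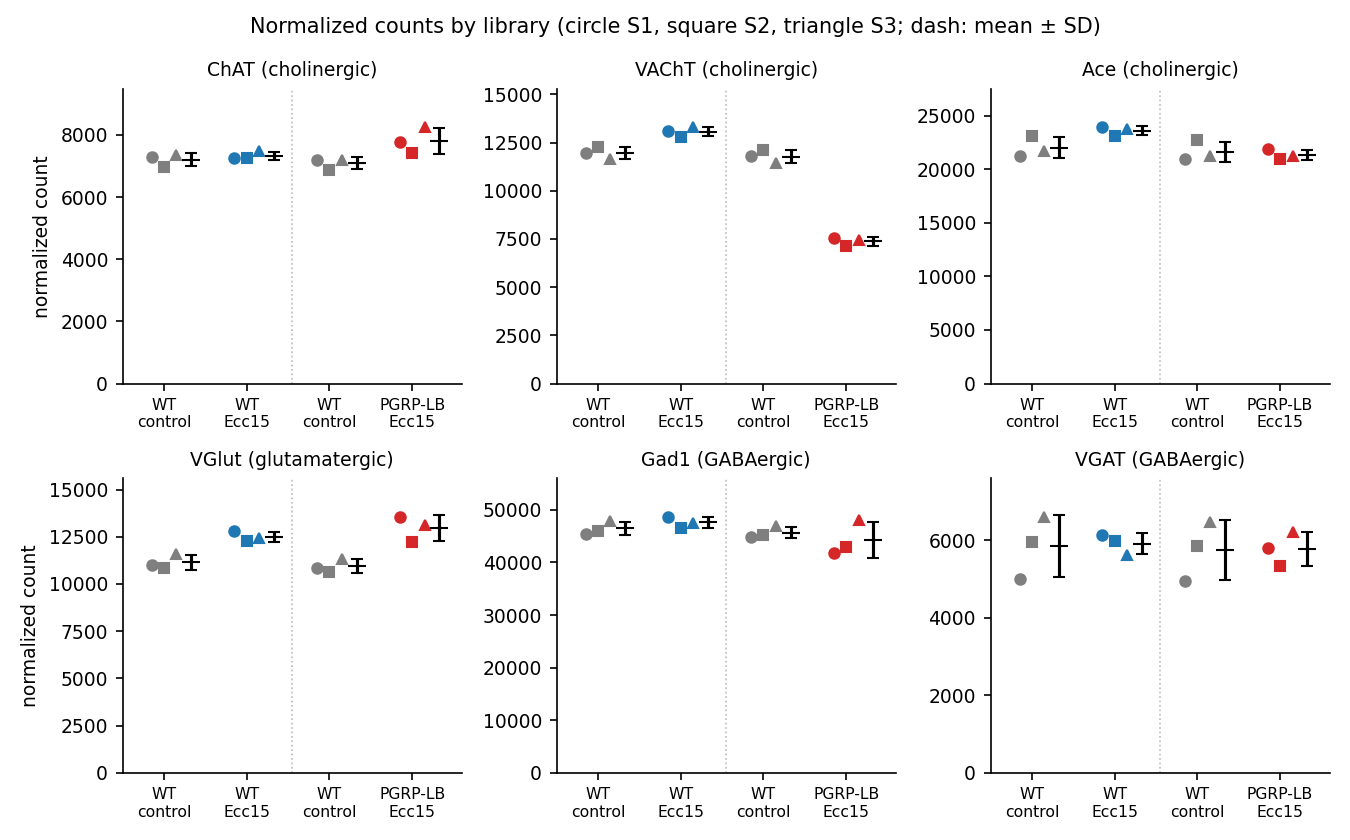
Normalized counts (y axis, from 0) of each of the 6 genes in every library, with WT control and WT Ecc15 from one table left of the dotted line and WT control and PGRP-LB Ecc15 from the other table right of it. Symbols are the libraries S1, S2 and S3, and the black mark is the mean ± SD of 3 libraries. The 3 PGRP-LB Ecc15 libraries of VAChT, at 7138 to 7548, lie below the controls, at 11427 to 12096.

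The exposure of wild-type flies changed none of the 6 genes past the threshold. The test was limma on log2(normalized count + 1) over 13085 genes, with Benjamini-Hochberg adjusted p under 0.05 as the threshold, and it called 0.122% of all genes, 16 in number and all higher. Among the 15064 genes with an adjusted p in the authors' deposited table, 0.83% were higher and 0.113% lower at the same threshold, none of the 6 among them. In 3 of the 6, VAChT, Ace and VGlut, all WT Ecc15 libraries stood above all WT control libraries. Over all genes tested, 12.6% had groups that did not overlap, 6.93% with the exposed group higher and 5.67% with it lower. The median log2 change of the 6 genes was 0.07, beside 0.00 for all genes tested.

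VGlut had the lowest p of the 6 after wild-type exposure. Its normalized counts were 11015, 10822 and 11577 in the controls and 12796, 12293 and 12426 in WT Ecc15. Exposed libraries were all higher, with a mean of 12505 ± 261 against 11138 ± 392 (SD, n = 3). The log2 change was 0.17 (SE 0.05, 95% interval 0.04 to 0.29, limma adjusted p = 0.552). The adjusted p in the authors' deposited table is 0.205.

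None of the acetylcholine genes was called in exposed wild-type brains. VAChT had 11940, 12298 and 11666 normalized counts in the controls and 13111, 12800 and 13290 in WT Ecc15. These groups did not overlap, and the log2 change was 0.13 (SE 0.05, 95% interval 0.01 to 0.25, limma adjusted p = 0.658). ChAT had 7288, 6969 and 7347 in the controls and 7247, 7265 and 7467 in WT Ecc15, which overlap, with a log2 change of 0.03 (95% interval -0.09 to 0.14, limma adjusted p = 0.930). For Ace the values were 21248, 23090 and 21657 in the controls and 23896, 23111 and 23774 in WT Ecc15. The lowest exposed Ace library was only just above the highest control library, and the log2 change was 0.10 (SE 0.06, limma adjusted p = 0.736).

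The GABA genes overlapped between the wild-type groups. Gad1 had 45468, 46003 and 47919 normalized counts in the controls and 48714, 46625 and 47552 in WT Ecc15 (log2 change 0.04, SE 0.07, limma adjusted p = 0.923). VGAT had 5012, 5950 and 6615 in the controls and 6154, 5981 and 5626 in WT Ecc15 (log2 change 0.02, SE 0.10, limma adjusted p = 0.970). Its 95% interval ran from -0.21 to 0.26, the widest of the 6 genes. VGAT was the most variable of them in WT control, with a coefficient of variation of 13.7% where counting error gives at most 1.51%. The control library lowest in VGAT, WT control S1, also had the lowest summed level of the 15 neuron genes, and its part in the VGAT spread was not tested.

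The comparison of PGRP-LB Ecc15 with WT control called 15.9% of 13384 genes, 1292 higher (9.65%) and 838 lower (6.26%). After quantile normalization the split was 1054 higher and 1298 lower, and after scaling to equal totals it was 1140 and 1182. Of the 6 genes, VGlut was called higher and VAChT lower, as they are in the authors' deposited table, where 9.03% of genes were higher and 6.19% lower. ChAT, VAChT and VGlut had groups that did not overlap, beside 35.7% of all genes tested (18.8% higher, 16.9% lower). The median log2 change of the 6 genes was 0.00, beside 0.01 over all genes tested.

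VAChT fell in the mutant brains. Its normalized counts were 11783, 12096 and 11427 in WT control and 7548, 7138 and 7427 in PGRP-LB Ecc15. All mutant libraries were far below all control libraries, and the spread within each group was small, with a coefficient of variation of 2.84% and 2.86%. The mean went from 11769 ± 335 to 7371 ± 211 (SD, n = 3). The log2 change was -0.67 (SE 0.06, 95% interval -0.81 to -0.54, limma adjusted p = 0.000496), which is 1.60-fold lower with an interval of 0.572 to 0.686 for the ratio. VAChT ranked 141 of 13384 genes by p, and the log2 change in the authors' deposited table is -0.675 with an adjusted p of 2.79e-21. Of 1307 genes with a mean of at least 5000 normalized counts in this table, 98 were called lower and 33, VAChT included, had a log2 change at or below that of VAChT. The fall passed the threshold in each of 15 alternative settings, with log2 changes of -0.75 to -0.65. The 15 general neuron genes had a median log2 change of 0.00 in this comparison, with 0 called. The glial and muscle sums given above did not overlap between these groups, and their part in the VAChT value was not tested.

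**Figure D3:**
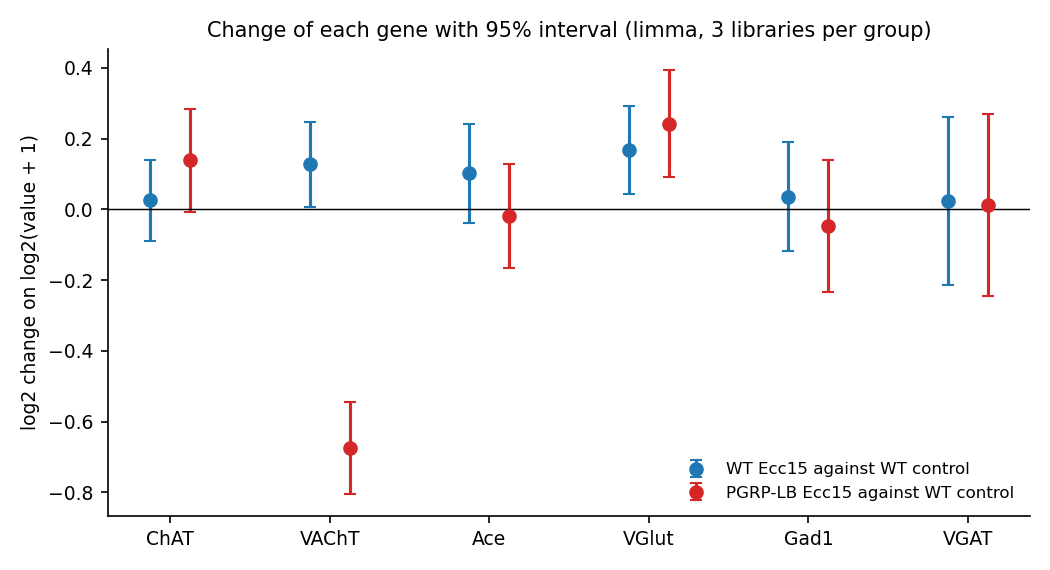
Log2 change of each gene with its 95% interval (limma, 3 libraries per group), blue for WT Ecc15 and red for PGRP-LB Ecc15, each against WT control in its own table, on the log2(normalized count + 1) scale. VAChT in PGRP-LB Ecc15, at -0.67, stands apart from the rest, which lie between -0.05 and 0.24.

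ChAT and Ace did not fall with VAChT. ChAT had 7192, 6855 and 7196 normalized counts in WT control and 7759, 7413 and 8239 in PGRP-LB Ecc15. All mutant libraries were above all control libraries, with a mean of 7804 ± 415 against 7081 ± 196 (SD, n = 3), but the change was not called (log2 change 0.14, SE 0.06, 95% interval -0.01 to 0.28, limma adjusted p = 0.173). That interval places ChAT between 0.996 and 1.22 times its control level. Ace had 20968, 22711 and 21212 in WT control and 21848, 20905 and 21220 in PGRP-LB Ecc15. The Ace groups overlapped (log2 change -0.02, SE 0.06, 95% interval -0.17 to 0.13, limma adjusted p = 0.865).

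VGlut rose in the mutant brains. Its normalized counts were 10870, 10644 and 11340 in WT control and 13564, 12217 and 13100 in PGRP-LB Ecc15. The groups did not overlap, with a mean of 12960 ± 684 against 10951 ± 355 (SD, n = 3). The change was 1.18-fold (log2 change 0.24, SE 0.06, 95% interval 0.09 to 0.39, limma adjusted p = 0.0445). In the authors' deposited table its adjusted p is 0.0115. This call lay close to the threshold and was lost when any 1 of the 6 libraries was left out, with adjusted p of 0.0542 to 0.145 and log2 changes of 0.21 to 0.28. It was also lost with quantile normalization (adjusted p = 0.0891), with scaling to equal totals (0.190) and without limma's mean trend (0.122). In both exposed groups VGlut was above the controls in all libraries. These comparisons share the control libraries.

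Neither GABA gene differed beyond its spread in the mutant brains. Gad1 had 44869, 45247 and 46935 normalized counts in WT control and 41787, 42920 and 48091 in PGRP-LB Ecc15. The lowest and the highest Gad1 value both belonged to mutant libraries (log2 change -0.05, SE 0.08, 95% interval -0.24 to 0.14, limma adjusted p = 0.725). VGAT had 4946, 5852 and 6479 in WT control and 5802, 5332 and 6222 in PGRP-LB Ecc15, with all mutant libraries inside the control range (log2 change 0.01, SE 0.11, 95% interval -0.25 to 0.27, limma adjusted p = 0.955). A VGAT change as large as that of VAChT lies outside this interval, whereas a rise or fall of the size seen for ChAT lies inside it.

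Ratios of 2 of the genes within a library do not depend on how that library was scaled, so they allow all 3 groups to be compared. The VAChT/ChAT ratio of normalized counts was 1.64, 1.76 and 1.59 in WT control, 1.81, 1.76 and 1.78 in WT Ecc15 and 0.973, 0.963 and 0.901 in PGRP-LB Ecc15. Thus VAChT had more counts than ChAT in every wild-type library and fewer in every mutant library. The ratio was 1.76-fold lower in PGRP-LB Ecc15 than in WT control and 1.89-fold lower than in WT Ecc15. Each of these differences had an exact two-sided permutation p = 0.1 (n = 3 per group), the smallest that 3 libraries against 3 allow. Between WT Ecc15 and WT control the ratio differed by 0.10 on the log2 scale, with overlapping groups (exact permutation p = 0.2).

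The fall of VAChT stood against every other gene of the set it was set beside. VAChT/VGlut was 1.08, 1.14 and 1.01 in WT control, 1.02, 1.04 and 1.07 in WT Ecc15 and 0.556, 0.584 and 0.567 in PGRP-LB Ecc15. VAChT/Ace was 0.562, 0.533 and 0.539, then 0.549, 0.554 and 0.559, then 0.345, 0.341 and 0.350 in the same order of groups. VAChT/VGAT ran from 1.76 to 2.38 in WT control, from 2.13 to 2.36 in WT Ecc15 and from 1.19 to 1.34 in PGRP-LB Ecc15. In all 3 ratios the wild-type groups overlapped with each other and the mutant libraries lay below both.

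Ratios without VAChT moved less. ChAT/Ace was 0.343, 0.302 and 0.339 in WT control, 0.303, 0.314 and 0.314 in WT Ecc15 and 0.355, 0.355 and 0.388 in PGRP-LB Ecc15, so the mutant libraries were above both wild-type groups, 1.12-fold and 1.18-fold (exact permutation p = 0.1 each, n = 3 per group). VGAT/Gad1, the ratio of GABA transporter to GABA-making enzyme, was 0.110, 0.129 and 0.138 in WT control, 0.126, 0.128 and 0.118 in WT Ecc15 and 0.139, 0.124 and 0.129 in PGRP-LB Ecc15. All 3 groups overlapped in it (exact permutation p = 0.4 to 0.8). VGlut/VGAT, a ratio of 1.91 in WT control, 2.11 in WT Ecc15 and 2.24 in PGRP-LB Ecc15 (geometric means), overlapped between all groups as well (exact permutation p = 0.2 to 0.3). Over the 7 ratios and 3 comparisons 21 tests were made, of which 10 had an exact permutation p = 0.1 and groups that did not overlap. The smallest Benjamini-Hochberg adjusted permutation p was 0.21, and no adjusted value can reach 0.05 with 3 libraries per group.

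**Figure D4:**
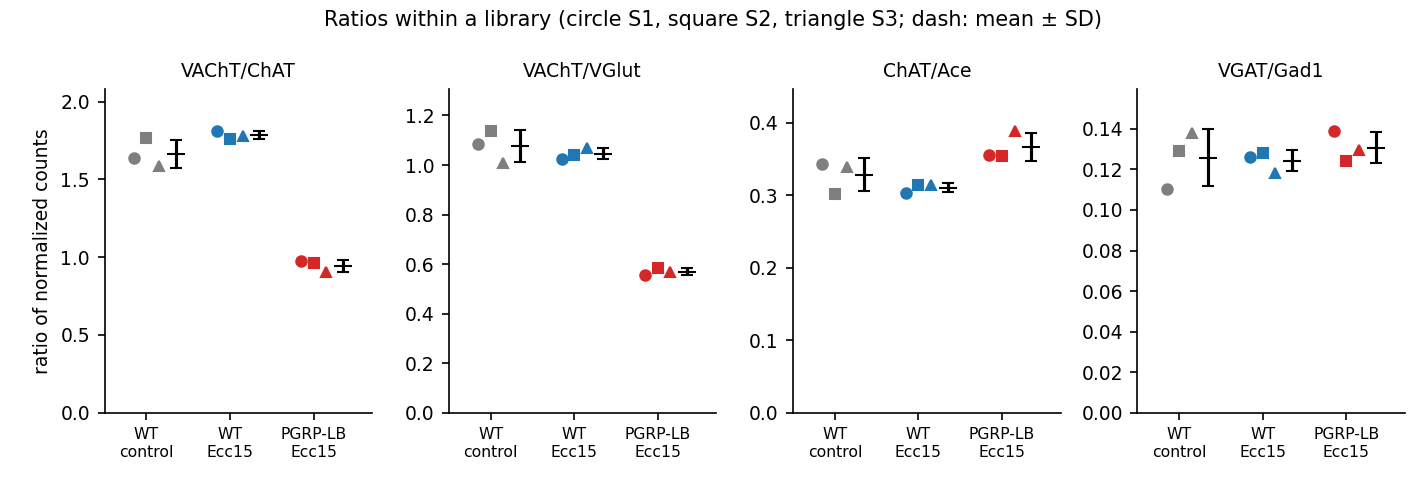
Ratio of normalized counts within each library (y axis, from 0) for VAChT/ChAT, VAChT/VGlut, ChAT/Ace and VGAT/Gad1, with symbols for libraries S1, S2 and S3 and the mean ± SD of 3 libraries as a black mark. VAChT/ChAT is 1.59 to 1.81 in the 6 wild-type libraries and 0.901 to 0.973 in the mutant libraries.

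Genes that supply these 3 transmitter systems were taken from lists by role, and none of the members reported here was called after wild-type exposure. In PGRP-LB Ecc15, where 9.65% of all genes were called higher and 6.26% lower, these genes gave the following calls. Of 5 genes for choline and acetyl-CoA supply, 1 rose and 1 fell, with a median log2 change of -0.01. ChT, a choline transporter, had 2300, 2530 and 2689 normalized counts in WT control and 3448, 2986 and 3282 in PGRP-LB Ecc15. It rose 1.29-fold without overlap (limma adjusted p = 0.0272), a call lost in 6 of 15 alternatives, among them those without WT control S1 or S2 or mutant S1 or S3 (adjusted p up to 0.0953). Ctl2, a choline transporter-like gene, had 1845, 1897 and 1783 in WT control and 1412, 1385 and 1393 in PGRP-LB Ecc15, a ratio of 0.759 (limma adjusted p = 0.00564) that was called in all 15 alternatives. Ctl1, ATPCL and AcCoAS, of which the latter pair make acetyl-CoA, had log2 changes of -0.12, -0.01 and 0.07 and were not called. Neither were acj6, vvl and unc-4, transcription factors of neurons, with log2 changes of -0.10, -0.04 and 0.17. Of these, acj6 is known to act on the cholinergic locus in flies.

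Of 8 genes that handle glutamate outside the vesicle, 2 fell and none was called higher in PGRP-LB Ecc15, beside 6.26% lower and 9.65% higher over all genes. The median log2 change of the 8 was -0.13. Gdh, glutamate dehydrogenase, fell to 0.772 of its control level (limma adjusted p = 0.0245), and Gs2, a glutamine synthetase, to 0.775 (limma adjusted p = 0.0461). These calls were lost in 5 and 7 of 15 alternatives. Leaving out WT control S2 or any of the mutant libraries ended both, as did WT control S3 for Gs2, with adjusted p up to 0.0880 for Gdh and 0.137 for Gs2. The uptake transporters Eaat1 and Eaat2, together with Gs1, Got1, Got2 and the transporter gene gb, were not called, with gb at a log2 change of -0.39 (limma adjusted p = 0.0556).

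GABA breakdown genes fell although Gad1 and VGAT were not called. Of 4 genes around GABA, 2 fell and 1 rose in PGRP-LB Ecc15, where 6.26% of all genes fell and 9.65% rose. The median log2 change of the 4 was -0.27. Gabat, the transaminase that starts GABA breakdown, had 31234, 32311 and 29371 normalized counts in WT control and 17755, 18630 and 20223 in PGRP-LB Ecc15. It fell to 0.609 of its control level without overlap (limma adjusted p = 0.00134). Ssadh, the dehydrogenase of the next step, had 12668, 11201 and 11044 in WT control and 7833, 8049 and 8807 in PGRP-LB Ecc15, a ratio of 0.708 (limma adjusted p = 0.00722). The gene that rose, b (black), encodes a decarboxylase known for making beta-alanine rather than GABA, and it had 758, 922 and 276 in WT control and 3223, 4346 and 4687 in PGRP-LB Ecc15 (6.97-fold, limma adjusted p = 0.00639). All of these calls were kept in 15 of 15 alternatives. The GABA uptake transporter gene Gat was not called (log2 change -0.04, limma adjusted p = 0.804). Gabat fell beside the summed level of the 11 glial genes given above, of which 5 were called lower and 2 higher. The part of these genes in the Gabat value was not tested. Of 3 genes of other vesicular or aminergic systems, Vmat, prt and Hdc, none was called, with log2 changes of 0.04, 0.00 and -0.59.

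**Figure D5:**
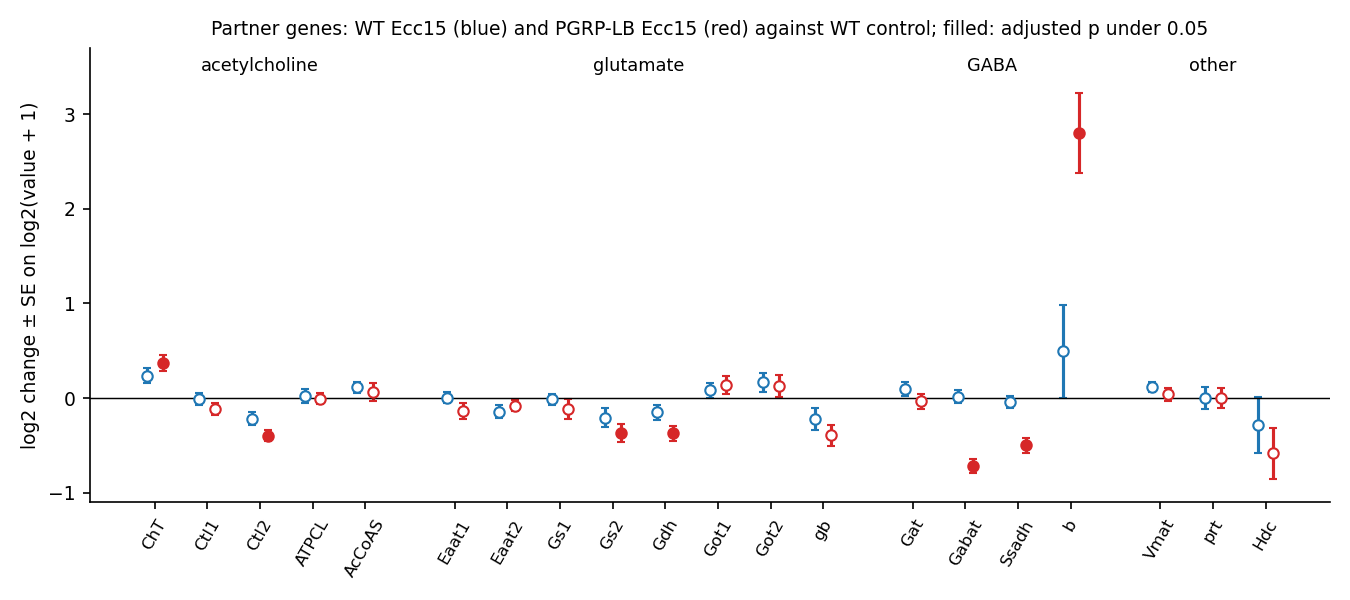
Log2 change ± SE (y axis, log2(normalized count + 1) scale, limma) of genes that supply or clear acetylcholine, glutamate and GABA and of 3 other vesicular or aminergic genes, blue for WT Ecc15 and red for PGRP-LB Ecc15 against WT control, filled where the adjusted p is under 0.05. No blue point is filled, and the filled red points are ChT, Ctl2, Gs2, Gdh, Gabat, Ssadh and b.

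Genes around the cholinergic locus were looked at beside VAChT. Within 20 kb of ChAT and VAChT, 13 of 15 annotated genes were in the files, and 13 were tested in PGRP-LB Ecc15, of which ChT, 18762 bases away, rose and none fell, beside 9.65% higher and 6.26% lower over all genes. A count of this size is near that share and says nothing particular about the locus. Mekk1, the nearest gene with high counts at 762 bases, had a log2 change of -0.14 (limma adjusted p = 0.224), and Epg5 had -0.01. CG7714 and CG7715, inside ChAT introns, had control means of 16.7 and 22.3 normalized counts and log2 changes of 0.10 and -0.04. CG34283, also inside a ChAT intron, had 0, 4 and 2 in WT control and 6, 5 and 12 in PGRP-LB Ecc15. CG14302, 337 bases away, had 1, 0 and 0 in WT control and 2, 5 and 2 in PGRP-LB Ecc15. The groups of CG34283 and CG14302 did not overlap, but counts were low and neither was called (limma adjusted p = 0.136 and 0.0938). In WT Ecc15 none of 12 neighbours tested was called.

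Around VGlut the neighbours moved both ways. Within 20 kb, 10 of 14 annotated genes were tested, of which 3 rose and 2 fell in PGRP-LB Ecc15, where 15.9% of all genes were called, and none was called in WT Ecc15. CG3557 rose from 2, 3 and 11 to 66, 62 and 74 normalized counts (limma adjusted p = 0.00562) and CG43750 from 13, 16 and 17 to 57, 70 and 70 (limma adjusted p = 0.00365). Eogt rose 1.39-fold (limma adjusted p = 0.0308), a call lost in 7 of 15 alternatives, with adjusted p up to 0.102. Atxn7 and CG9886 fell to 0.752 and 0.598 of their control level (limma adjusted p = 0.0119 and 0.00640).

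For each of the 6 genes the genes with the most similar course were listed, by Pearson r of log2 values over the 9 libraries put on a common scale, among 8653 genes with a mean of at least 50. These r describe 3 groups of 3 libraries that share their scaling, and carry no test. VAChT was closest to CG10869, asRNA:CR44291 and CG9360, with r of 0.987 each. Since they were picked for a course like that of VAChT, their fall in PGRP-LB Ecc15 follows from the choice and is given as a description. CG10869 and CG9360 had log2 changes of -1.01 and -1.96, and asRNA:CR44291, an antisense RNA, went from 139, 139 and 183 normalized counts in the controls to 2, 1 and 2 in the mutant libraries. ChAT was closest to S (Star, r = 0.961), CG12576 (0.957) and spi (0.952), the gene of the EGF-like ligand Spitz. VGlut was closest to CG4467 (0.981), sqd (0.971) and CG42750 (0.967). For Ace the closest were sm (0.946), Sema1a (0.909) and Camta (0.884), for VGAT CG1677 (0.961), CG44153 (0.946) and CASK (0.939), and for Gad1 CG4238 (0.901), an ID that spreadsheet software had turned into a date (0.890) and CG34370 (0.886).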

How the data were processed

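Brain RNA of 3 groups of 3 libraries was measured by poly(A) RNA sequencing. Per the submitters' processing notes, the authors used HISAT2, HTSeq, featureCounts and DESeq2, with no role given for each, and their genome build and strand setting are not stated. Sheets of 4 deposited workbooks gave 12 tables, and the 2 that hold all 17562 gene IDs were used, 1 for each exposed group. Their values per library are whole numbers under a sheet title that names raw data, yet the same WT control libraries differ between the tables by constant factors of 1.013, 1.017 and 1.021. They were therefore taken as a deposited score, normalized counts scaled by the authors per table and then rounded, and no count model was run. The deposited fold change ratio, its log2 value, the p-value and the adjusted p-value of the authors were used only where their table is named. Scaling factors of 0.732 to 1.14 were estimated from missing and doubled whole numbers, with an error of at most 0.343% over 10 simulated factors, and the control factors between tables differed from the ratio of values by up to 1.09%.

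Within a table, genes averaging at least 1 were tested on log2(value + 1) by limma-trend (limma 3.58.1 in R 4.3.3), two-sided, with Benjamini-Hochberg adjustment over all genes and a threshold of 0.05. Ratios within a library were compared with exact permutation tests (Python 3.11.15, scipy 1.17.1). Fold changes on log2(value + 1) understate the change of genes with low values. Annotation came from BDGP6 by symbol, and 16839 gene IDs matched a symbol there. Members and gene lists were chosen with earlier results of these data known. Named genes were the 6 genes and called members of the lists, up to 4 per list but all of them for glia. Neighbours within 20 kb of ChAT, VAChT or VGlut and the 3 genes most like each of the 6 were also named. A few members that were not called are named to complete a list or to give those that went the other way. A gene of the glutamate list is not reported here, and the counts and median of that list are without it. The marker lists held genes of neurons, glia, photoreceptors, muscle, haemocytes, fat body and sensory neurons. The fits were tested on simulated data. No library was left out or imputed, and no label ties the column marks S1 to S3 to the replicate numbers of the sample titles. Nucleotide and protein sequences were not used here.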

Additional observations from a re-analysis of the deposited data

How the results depend on the processing

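The fall of VAChT in PGRP-LB Ecc15 passed the limma threshold in all 15 alternatives (adjusted p 1.89e-05 to 0.00753). VGlut in PGRP-LB Ecc15 lost its call with quantile normalization (log2 change 0.20), equal totals (0.17), no trend (0.24) and without any 1 library (0.21 to 0.28), and kept it in 6 alternatives; the cause was not tested. Genes called higher in WT Ecc15 numbered 0 without the trend (902 at an unadjusted p under 0.05) and 28 in a joint fit of 9 libraries, and 0 to 19 with 1 library left out, where none was called without WT control S1, WT Ecc15 S1 or WT Ecc15 S2 (1235, 595 and 622 genes had p under 0.05 before adjustment) and 6 were without WT control S2. Genes called lower in PGRP-LB Ecc15 numbered 1298 with quantile normalization, 519 without the trend, 1285 in the joint fit and 387 to 673 with 1 library left out, when 742 to 1059 were called higher. Near 0, signs turned for ChAT in WT Ecc15 (quantile -0.0033, equal totals -0.0046), VGAT in WT Ecc15 (-0.0020, -0.0064, and -0.085 to 0.12 with 1 library left out), VGAT in PGRP-LB Ecc15 (-0.017, -0.061, and -0.093 to 0.10) and Ace in PGRP-LB Ecc15 (-0.042 to 0.016 with 1 library left out). With 1 library left out, log2 ratio differences ran from -0.11 to 0.057 for VGAT/Gad1 in WT Ecc15, -0.032 to 0.13 for VGAT/Gad1 in PGRP-LB Ecc15 and -0.0069 to 0.21 for VAChT/VGAT in WT Ecc15. No paired analysis was possible because each pair of groups compared shares at most 1 replicate number and the deposited columns carry none of them. Counting error of the 6 genes was at most 1.51%.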

Other observations

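The exposed groups were also compared with each other, after all 9 libraries had been put on one scale by median-of-ratios factors of 0.985 to 1.01. In this joint limma fit of 13224 genes, 1319 genes had higher levels in the mutant libraries than in WT Ecc15 and 880 had lower ones. VAChT was lower in the mutant libraries by a log2 change of -0.79 (SE 0.05, 95% interval -0.90 to -0.69, limma adjusted p = 1.01e-05), a ratio of 0.578. The other 5 genes were not called between the exposed groups. ChAT had a log2 difference of 0.12 (limma adjusted p = 0.142), Ace of -0.11 (0.186), VGlut of 0.08 (0.335), Gad1 of -0.07 (0.520) and VGAT of -0.00 (0.996). The separate scaling of the deposited tables, and the absence of unexposed mutant libraries from this comparison, hold for these values too.

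Among the other cell types, 2 of 9 haemocyte genes (haemocytes are the blood cells of the fly) were called lower in PGRP-LB Ecc15, beside 6.26% of all genes. These were Col4a1 and vkg, which encode collagen IV chains and are also made by fat body. Log2 changes above 0 were seen there for crq (0.36) and eater (0.30), which were not called. In WT Ecc15 none of the 9 was called, but Hml, Sr-CI, eater and NimC1 were 2.00-fold to 2.13-fold higher without overlap (limma adjusted p 0.0542 to 0.296). The summed level of the list was 34090 to 38145 in WT control, 41183 to 49796 in WT Ecc15 and 21404 to 29061 in PGRP-LB Ecc15. Of the glial genes, Mdr65, wrapper, alrm, nrv2 and zyd fell and Gli and Indy rose in PGRP-LB Ecc15, with a median log2 change of -0.18 over the 11. The glial genes repo, moody, loco and bnb were not called, with log2 changes of -0.05, -0.18, 0.22 and -0.01. The calls of Gli and nrv2 were lost in 5 and 3 of 15 alternatives, and that of Col4a1 in 4. Of 7 fat body genes tested 1, Fbp2, was called higher in PGRP-LB Ecc15, beside 9.65% of all genes. Fbp2 had 0 normalized counts in every WT control library and 8, 5 and 9 in the mutant libraries. It thus passed the mean filter only through the mutant group, and its call is not read as a result. Yp1, Yp2, Yp3 and apolpp overlapped between these groups. Of 7 sensory neuron genes 1, nompC, was called lower (lost in 6 of 15 alternatives), beside 6.26% of all genes. For the fat body and sensory neuron lists, 1 call among 7 genes is near those shares.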
